A study of Mus musculus with 4 samples.

Results

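Muscleblind, CELF, RBFOX, RBPMS, polypyrimidine tract binding and quaking proteins bind RNA and set which exons of a transcript are kept. PRDM6 peaks were examined at 10 mouse genes that encode such proteins and are known from smooth muscle: Mbnl1, Mbnl2, Celf1, Celf2, Rbfox2, Rbpms, Rbpms2, Ptbp1, Ptbp2 and Qk. A peak belonged to a gene where the deposited annotation named that gene as the nearest. By that rule 72 of the 13977 PRDM6 peaks belonged to these genes, or 0.515% of the list, and 7 of the 10 genes had at least 1 peak. Mbnl1 had 27 peaks, Celf2 had 15, Ptbp2 had 9, Rbfox2 had 7, Mbnl2 had 6, Qk had 5 and Rbpms had 3. Celf1, Rbpms2 and Ptbp1 had none. The genes were chosen by function, with their peak counts in these data already known, so the counts are a description.

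The cells were cultured outflow tract smooth muscle cells (SMCs), isolated late in gestation from the aortic arch and ductus arteriosus of Prdm6 fl/fl mouse embryos, that carried a lentivirus expressing FLAG-tagged PRDM6. PRDM6 belongs to the zinc finger proteins with a PR domain. In 2 PRDM6 ChIP samples the tag served to precipitate chromatin, and 2 Input samples held chromatin without the precipitation. The study describes the immunoprecipitations in one place as made from a single sample and in another as independent, so their agreement may cover technical spread only. The study's mouse lines were kept on a C57/Black6 background. All samples shared the cell source, and the protein that was mapped was the tagged and overexpressed one. The peak list held values of the PRDM6 ChIP samples only and no RNA levels, so neither the SMC identity of the cells nor the expression of the 10 genes could be checked.

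In SMCs, a change from the contractile to the proliferative state is accompanied by a change in exon choice in transcripts of the contractile apparatus and the cytoskeleton. Ptbp1 holds many smooth muscle exons back, and Rbpms promotes them. Muscleblind and CELF proteins often act on the same exons in opposite directions during the development of heart and skeletal muscle.

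The strength of a peak was given as the −log10 p-value of the peak caller in each ChIP replicate, and the matched value is the smaller of both. Which sample was which replicate is not known, so they are called first-listed and second-listed. The irreproducible discovery rate (IDR) measures how well the ranks of a peak agree between them, and a low value marks better agreement. Read totals of the libraries were not in the files used, so depth is given only as far as the −log10 p-values show it. The values of the first-listed replicate fell on a Poisson background with a mean of 2.61 fragments for 58.3% of all peaks, and those of the second-listed replicate on a mean of 2.39 for 63.5%. Among the 72 peaks the height could be read in this way for 40 in the first-listed replicate, with a median of 14.5 fragments, and for 48 in the second-listed replicate, with a median of 12 fragments. Counts of this size have a wide counting error.

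The 72 peaks were about as strong as the list as a whole. Their median matched −log10 p was 5.38, with quartiles of 4.39 and 6.67, and that of all peaks was 5.53, with quartiles of 4.39 and 6.92. In the first-listed replicate the median was 6.92 for both. In the second-listed replicate it was 5.84 for the 72 peaks and 6.61 for all peaks. The first-listed value was the higher one in 45 of the 72 peaks (62.5%), against 52.1% of all peaks. Only 2 of the 72 peaks (2.78%) reached a global IDR of 0.05 or lower, against 3.33% of all peaks, and none reached 0.01. The lowest score of the list, which stands for the poorest agreement, was held by 34 of the 72 (47.2%), against 41.4% of all peaks.

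**Figure D1:**
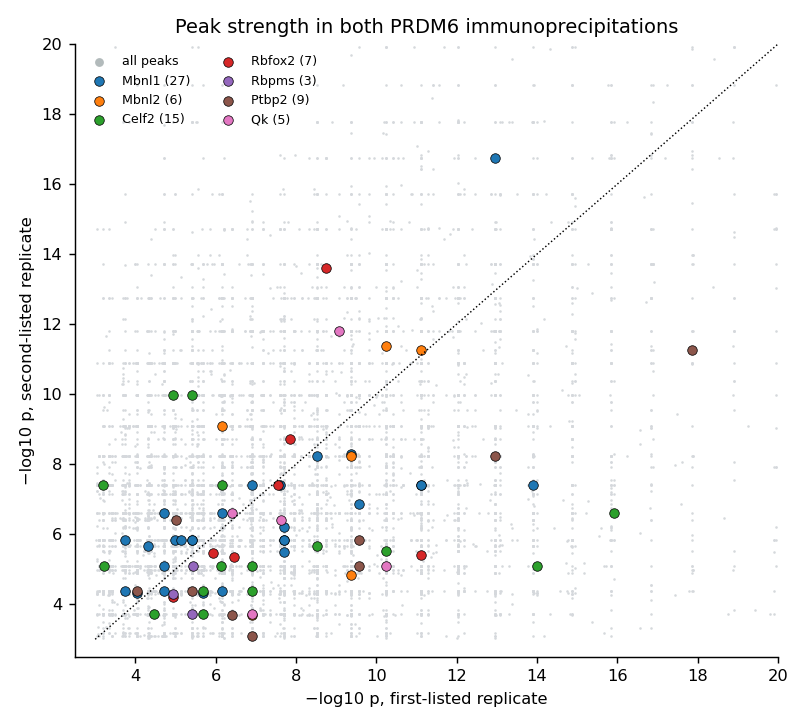
Each point is a peak, placed by its −log10 p in the first-listed (horizontal) and the second-listed replicate (vertical), with equal values on the dotted line and 152 stronger peaks of other genes beyond the axes. The coloured points, the 72 peaks of the splicing regulators, lie within the grey points of all peaks, with 1 Mbnl1 peak at 13.0 and 16.7 and 1 Ptbp2 peak at 17.9 and 11.3 farthest out.

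Longer genes collect more peaks, so the genes are set here beside protein-coding genes of their own length. Of all 21728 protein-coding genes, 19.9% had a peak. Among genes of 100 to 200 kb the share was 49.8%, and all 4 of the set in this class (Mbnl1, Mbnl2, Rbpms and Qk) had one. Among genes of 200 kb or longer the share was 63.6%, and both of the set (Celf2 and Rbfox2) had one. Of genes of 50 to 100 kb, 35.8% had a peak, and of Celf1 and Ptbp2 only Ptbp2 did. Of genes under 50 kb, 12.2% had a peak, and neither Rbpms2 nor Ptbp1 did. The members without a peak were thus 3 of the 4 shortest genes of the set.

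Counts of 5 or more peaks were found for 6 of the 10 genes, against 2.92% of all protein-coding genes. By length they were 1 of 2 genes of 50 to 100 kb (Ptbp2), against 3.59%, 3 of 4 of 100 to 200 kb (Mbnl1, Mbnl2 and Qk), against 9.87%, and both of 200 kb or longer, against 23.8%. Qk had exactly 5, with 2 of them only 186 bp apart. Of the 9 peaks of Ptbp2, 8 lay upstream at more than 100 kb and only 1 lay within 100 kb of the TSS. The median gene with any peak had 2. A peak inside the gene body was found in 7 of the 10 genes and in 14.2% of protein-coding genes. Of those of 100 kb or longer it was 6 of 6 and 53.5%. A peak that passed a global IDR of 0.05 was assigned to 2 of the 10 genes and to 1.60% of protein-coding genes. Of those of 50 kb or longer it was 2 of 8 and 4.16%. All 40 peaks that lay inside the bodies of these genes were assigned to them and not to another gene. A further 24 lay upstream and 8 downstream.

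**Figure D2:**
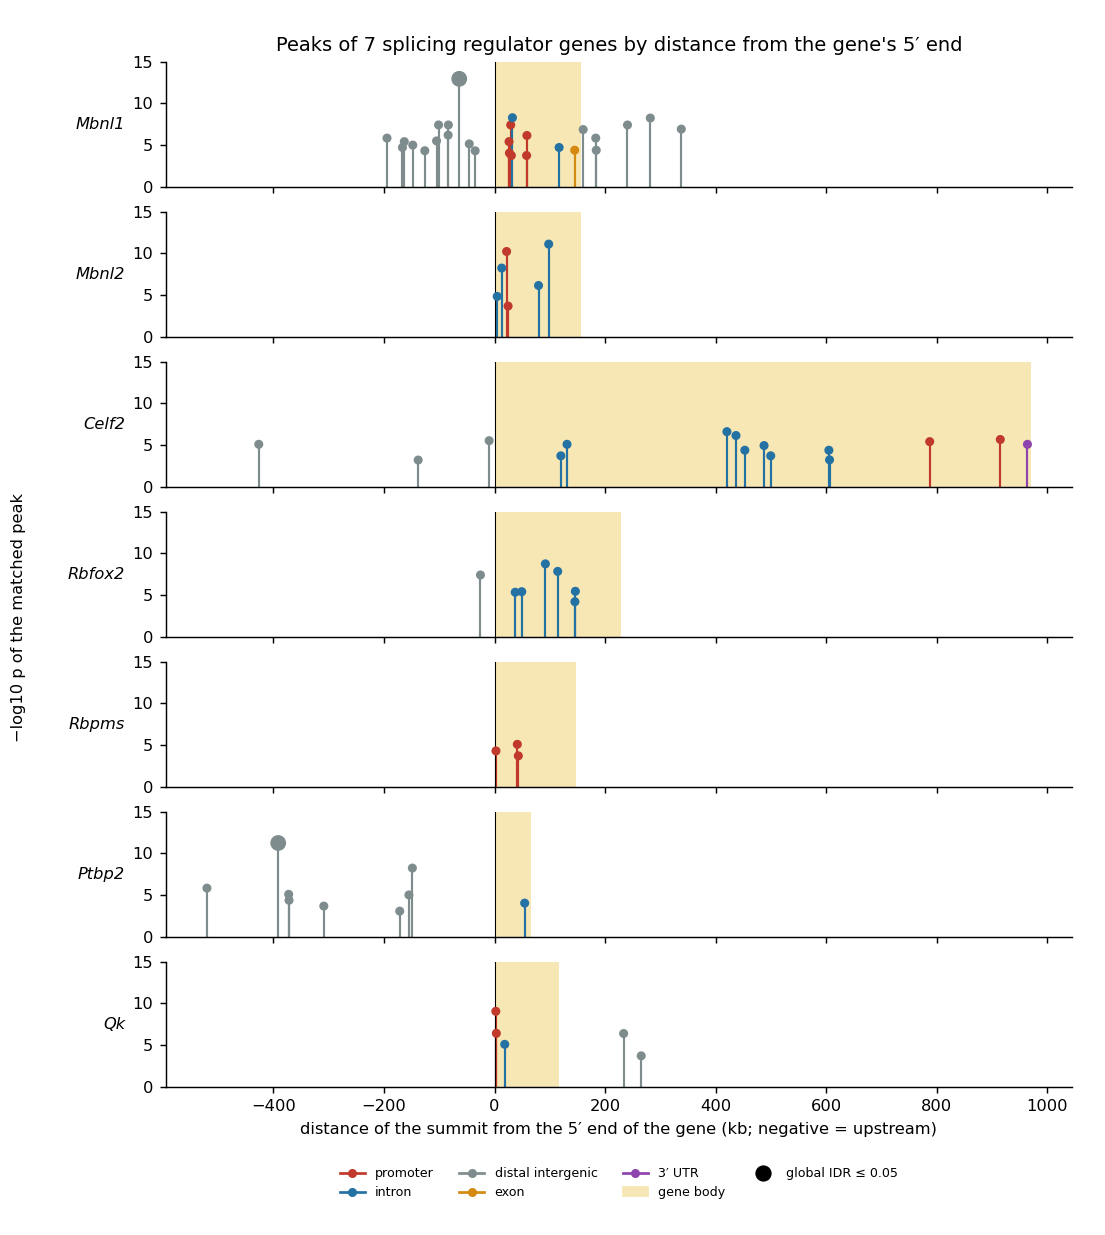
Peaks of the 7 genes with a peak: the horizontal axis gives the distance of the summit from the 5′ end of the gene in kb, in reading direction, and the vertical axis the matched −log10 p, with the gene body shaded, colours for the region class and large points for peaks that passed a global IDR of 0.05. The peaks of Mbnl2 and Rbpms lay inside the gene, those of Mbnl1 spread over 533 kb on both sides, and 8 of the 9 peaks of Ptbp2 lay far upstream.

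Mbnl1 encodes the most widely expressed muscleblind protein and lies on the plus strand of chromosome 3 (mm10, chr3:60472830-60629750, 156.9 kb). Its 27 peaks placed it at rank 3 among the 5243 gene symbols with a peak. They spread over 533 kb, with 12 upstream of the gene, 9 inside it and 6 downstream. The nearest protein-coding genes, Sucnr1 and P2ry1, were 385 kb and 373 kb away, so no other protein-coding gene lay near most of these peaks. Of the 27 peaks, 25 lay within 250 kb of the 5′ end of Mbnl1, where the median protein-coding gene had 2, the quartiles were 0 and 4 and the highest had 36. As many or more were found for 0.0506% of protein-coding genes. Inside the gene Mbnl1 had 5.74 peaks per 100 kb, the highest density of the 7 genes, ahead of Mbnl2 at 3.85. Several of these Mbnl1 peaks were close neighbours counted singly, with gaps of 112, 47, 948 and 54 bp. No Mbnl2 peak had a neighbour closer than 1461 bp. With peaks under 1 kb apart joined, Mbnl1 would fall below Mbnl2 by this density.

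The strongest Mbnl1 peak lay upstream, at chr3:60408353-60409625, 63205 bp from the nearest annotated transcription start site (TSS). Its −log10 p was 13.0 in the first-listed and 16.7 in the second-listed replicate, from heights of 21 and 24 fragments, and its global IDR was 0.0245. It was thus high in both replicates. It is shown because it is the better reproduced of the 2 peaks that passed an IDR of 0.05. The sequence is that of the 101 bases around its summit (chr3:60408837-60408937, plus strand), in lower case throughout since it held no AP-1, TEAD or CArG site and neither TTTCAT nor TTTCCT on either strand, and it contains a run of adenines.
Mbnl1, 63205 bp upstream: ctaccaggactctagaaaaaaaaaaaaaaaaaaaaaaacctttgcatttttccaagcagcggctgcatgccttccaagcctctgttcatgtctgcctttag

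The other Mbnl1 peaks ranged from 3.75 to 13.9 in the first-listed and from 4.31 to 8.28 in the second-listed replicate, with medians over all 27 peaks of 6.15 and 5.84. The lowest score of the list was held by 13 of the 27. The median matched value was 5.50, close to that of all peaks. Mbnl1 therefore stood out in these data by the number of its peaks, with neighbours less than 1 kb apart counted separately, and not by their strength.

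The Mbnl1 peaks nearest to a TSS did not lie at the 5′ end of the gene. None of the 27 came closer to that end than 26.2 kb. A group of 5 peaks between 60498893 and 60506149 lay at a cluster of internal start sites about 28.4 kb into the gene. The peak at chr3:60501241-60503022 overlapped one of these, with −log10 p of 11.1 in the first-listed and 7.42 in the second-listed replicate. Of the 25 annotated transcripts of Mbnl1, 8 start within 3 kb of it, 3 of them protein-coding. Another pair of peaks lay near a start 56.8 kb into the gene, with first-listed values of 3.75 and 6.15 and second-listed values of 4.39 and 6.61. The remaining 2 peaks inside the gene lay farther 3′: 1 in an intron and 1 over an exon of a transcript with a retained intron.

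Mbnl2 encodes the second muscleblind protein of the set, which overlaps with Mbnl1 in its RNA targets (chr14:120275669-120431697, plus strand, 156.0 kb). The gene has nearly the same length as Mbnl1 but 6 peaks against 27, all inside the gene, and 7 within 250 kb of its 5′ end. In the first-listed replicate its peaks had values of 9.37, 9.37, 10.2, 6.92, 6.15 and 11.1, from 5′ to 3′. In the second-listed replicate the same peaks had values of 4.84, 8.25, 11.4, 3.68, 9.10 and 11.3. Only 1 of the 6 had the lowest score. With a median matched value of 7.20, Mbnl2 had the strongest peaks of the 7 genes, but 6 peaks give a loose median.

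Its strongest peak by the matched value lay in intron 2 at chr14:120373005-120373964, with 11.1 and 11.3 in the replicates. The next lay at chr14:120296480-120298163, with 10.2 and 11.4, and overlapped the TSS of a protein-coding transcript 22.0 kb inside the gene. With scores of 405 and 378, where 540 marks a global IDR of 0.05, both fell short of that limit although the values of the replicates were close to each other. The summit of the intronic peak (chr14:120373538-120373638, plus strand) is printed because it is the strongest peak of the set inside a gene body.
Mbnl2, intron 2: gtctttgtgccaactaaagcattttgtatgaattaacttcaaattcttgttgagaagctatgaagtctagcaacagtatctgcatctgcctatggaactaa

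The CELF genes differed from each other. Celf2 is the longest gene of the set (chr2:6539694-7509563, minus strand, 969.9 kb) and had 15 peaks, or 1.24 inside the gene per 100 kb, the lowest density of the 7 genes. Only 4 peaks lay within 250 kb of its 5′ end. Its matched values ranged from 3.21 to 6.61 with a median of 5.10, and 8 of the 15 had the lowest score. First-listed values ran from 3.21 to 15.9 and second-listed values from 3.71 to 9.98.

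The Celf2 peak with the highest matched value lay in intron 2 at chr2:7088474-7089634 and was far higher in the first-listed replicate, at 15.9, than in the second-listed, at 6.61. A similar gap was seen at chr2:7377886-7379100 in intron 1, with 14.0 and 5.10. At chr2:6721695-6722680 a peak overlapped a cluster of internal start sites 787.6 kb from the 5′ end, where 6 of 18 protein-coding transcripts start within 3 kb, and here the second-listed value was the higher one, at 9.98 against 5.42. The replicates thus did not rank the Celf2 peaks alike. A further Celf2 peak at chr2:6545239-6545740 lay in the 3′ UTR. The sequence around the summit of the intron 2 peak was as follows (chr2:7089171-7089271, plus strand).
Celf2, intron 2: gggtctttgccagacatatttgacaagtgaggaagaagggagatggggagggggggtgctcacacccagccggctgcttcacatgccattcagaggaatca

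Celf1, the more widely expressed CELF gene (chr2:90940382-91019497, plus strand, 79.1 kb), had no peak. The nearest one lay 129.9 kb from its 5′ end and was assigned to Slc39a13, with values of 6.42 and 7.42. Within 250 kb of the 5′ end of Celf1 there was 1 peak, fewer than for the median gene.

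Rbfox2 encodes an RNA binding protein that acts on muscle and epithelial exons (chr15:77078990-77307004, minus strand, 228.0 kb). Of its 7 peaks, 6 were intronic, 2 of them in intron 1 and 4 in intron 2, and 1 lay upstream. None was at a promoter: the nearest to a TSS, at chr15:77160695-77160987, was 6883 bp away. First-listed values were 5.94, 4.95, 7.85, 8.75, 11.1, 6.44 and 7.55 in order of position. Second-listed values were 5.46, 4.21, 8.72, 13.6, 5.41, 5.34 and 7.42. The strongest by the matched value lay in intron 2 at chr15:77214843-77215369. Around its summit (chr15:77215019-77215119, plus strand) the bases in capitals are 2 copies of AGGAAA, the reverse complement of TTTCCT.
Rbfox2, intron 2: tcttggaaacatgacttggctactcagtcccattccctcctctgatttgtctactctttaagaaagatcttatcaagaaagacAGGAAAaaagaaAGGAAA

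With 10 peaks within 250 kb of its 5′ end, Rbfox2 ranked above 95.2% of protein-coding genes by this count, and Mbnl2 ranked above 88.6%. Celf2, Rbpms, Ptbp2 and Qk each had 4 such peaks, more than 72.1% of genes. Rbpms2 and Ptbp1 each had 3, more than 62.0%, although none of these was assigned to them, and Celf1 had more than 31.3%.

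**Figure D3:**
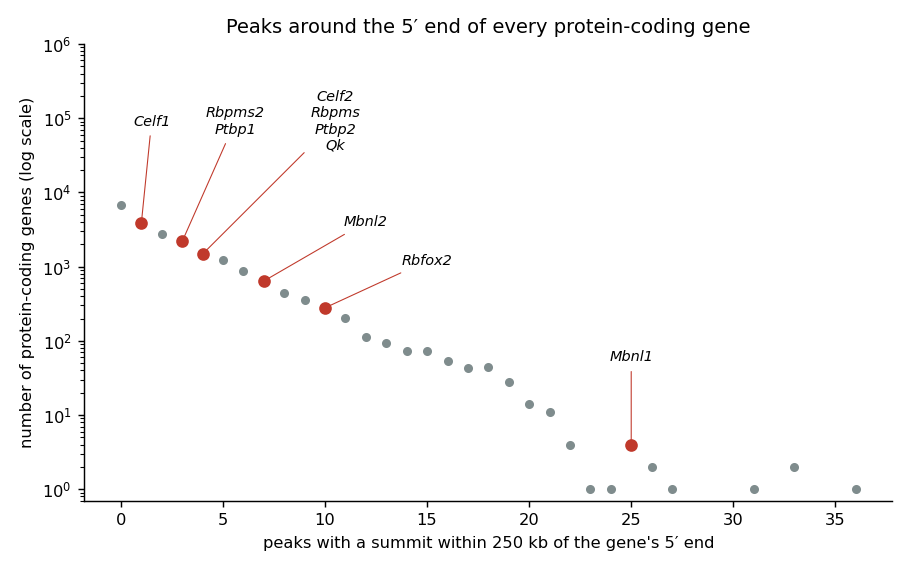
Number of protein-coding genes (log axis) for each number of PRDM6 peaks within 250 kb of the 5′ end, with the counts at which the 10 splicing regulators lie in red. Mbnl1 stands at 25 in the tail, Rbfox2 at 10 and Mbnl2 at 7, and the other 7 genes lie between 1 and 4.

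Rbpms encodes an RNA binding protein enriched in differentiated SMCs (chr8:33782643-33929863, minus strand, 147.2 kb), and its peaks were the weakest of the set. It had 3, all at promoters. First-listed values were 5.42, 5.43 and 4.93, and second-listed values were 3.71, 5.10 and 4.30. All 3 had the lowest score of the list, and only 1 reached a −log10 p of 5 in the second-listed replicate. A pair lay near an internal TSS 40.1 kb into the gene, the closer one at chr8:33888584-33888803 with 979 bp to the TSS, and the other peak lay 1588 bp from a TSS at the 5′ end. The summit of the closer one (chr8:33888636-33888736, plus strand) held no AP-1, TEAD or CArG site and neither TTTCAT nor TTTCCT.
Rbpms, internal promoter: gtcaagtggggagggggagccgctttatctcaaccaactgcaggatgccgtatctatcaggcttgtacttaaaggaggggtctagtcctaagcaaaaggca

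Rbpms2, its paralogue (chr9:65629648-65660528, plus strand, 30.9 kb), had no peak, and the nearest, assigned to Plekho2, lay 79.1 kb upstream with values of 7.17 and 9.98.

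Ptbp1, which represses smooth muscle exons and is the shortest gene of the set (chr10:79854427-79864771, plus strand, 10.3 kb), had no peak. A peak at chr10:79841075-79841421 lay 13.2 kb upstream of it and was assigned to Misp. With 11.1 in the first-listed and 11.8 in the second-listed replicate its matched value was as high as that of the strongest Mbnl2 peak. Its global IDR was 0.0933. A gene without a peak under the nearest-gene rule can therefore still have one close by.

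Ptbp2, the paralogue best known from neurons (chr3:119718742-119784466, minus strand, 65.7 kb), had 9 peaks, of which 8 lay upstream at more than 100 kb from the gene. The next protein-coding gene on that side, Rwdd3, was 1371 kb away. The only peak inside the gene, at chr3:119729862-119730035 in intron 8, was weak in both replicates, at 4.04 and 4.39. Of the peaks upstream, the first-listed values ran from 5.02 to 17.9 and the second-listed values from 3.08 to 11.3. Of the 9 peaks, 8 reached a −log10 p of 5 in the first-listed replicate and 5 in the second-listed. The strongest, at chr3:120175310-120176354, lay 390844 bp upstream, with 17.9 in the first-listed and 11.3 in the second-listed replicate and a global IDR of 0.0331. It was the other of the 2 peaks of the set that passed an IDR of 0.05. Around its summit (chr3:120175848-120175948, plus strand) the capitals mark AGGAAA.
Ptbp2, 390844 bp upstream: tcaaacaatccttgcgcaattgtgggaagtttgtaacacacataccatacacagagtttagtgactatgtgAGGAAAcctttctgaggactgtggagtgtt

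Qk encodes quaking, an RNA binding protein with a role in vascular SMC differentiation (chr17:10202601-10319854, minus strand, 117.3 kb). Of its 5 peaks, 2 lay at the promoter near the 5′ end, 1 in intron 1 and 2 beyond the 3′ end, at more than 100 kb from a TSS. The promoter peaks, at chr17:10316350-10317185 and chr17:10317372-10318401, had first-listed values of 6.42 and 9.06 and second-listed values of 6.61 and 11.8. The remaining 3 had first-listed values of 6.92, 7.63 and 10.2 and second-listed values of 3.71, 6.39 and 5.10. The promoter peaks were thus those in which the second-listed value was the higher one. The stronger of them lay 960 bp from the TSS, and its summit (chr17:10317534-10317634, plus strand) was as follows.
Qk, promoter: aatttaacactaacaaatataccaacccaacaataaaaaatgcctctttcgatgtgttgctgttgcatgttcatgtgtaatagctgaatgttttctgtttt

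Over the 7 genes together the peaks fell on gene regions much as all peaks did, but the genes differed among themselves. Promoters, within 3 kb of a TSS, held 15 of the 72 peaks (20.8%, 95% Wilson interval 13.1% to 31.6%), against 21.3% of all peaks. Introns held 23 (31.9%, 22.3% to 43.4%), against 35.9%. Intergenic sequence held 32 (44.4%, 33.5% to 55.9%), against 37.2%, a share within the interval. Mbnl1 had 18 of its 27 peaks (66.7%) between genes, and Ptbp2 had 8 of 9 (88.9%). Without Mbnl1 the order turned: 31.1% of the other 45 peaks (19.5% to 45.7%) were intergenic and 46.7% (32.9% to 60.9%) were intronic, one below and the other above the share of all peaks. Ptbp2 gave 8 of the 14 intergenic peaks among these 45. The intervals cover counting error over peaks only, and 42 of the 72 peaks (58.3%) came from Mbnl1 and Celf2. More than 100 kb from any TSS lay 21 of the 72 (29.2%), against 19.3% of all peaks, with 9 at Mbnl1, 8 at Ptbp2 and 2 each at Celf2 and Qk. A TSS was overlapped by 3 peaks, 1 each in Mbnl1, Mbnl2 and Celf2, against 6.64% of all peaks.

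**Figure D4:**
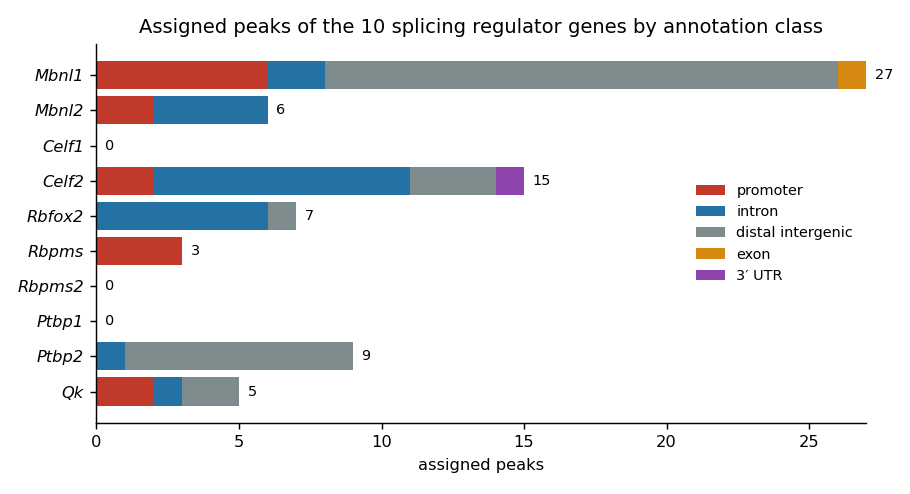
Number of assigned peaks (horizontal) of each of the 10 genes, with the bars divided by region class. Rbpms had 3 promoter peaks and no others, Rbfox2 had 6 intronic peaks of 7, and Ptbp2 had 8 intergenic peaks of 9.

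The promoter peaks lay mainly at internal start sites. Of the 15, 12 were assigned to a transcript that starts more than 10 kb inside its gene: 6 in Mbnl1, 2 each in Mbnl2 and Celf2, and 2 in Rbpms. Over all protein-coding genes the share was 27.0% of promoter peaks, and over genes of 100 kb or longer, as all 5 genes with a promoter peak are, it was 46.6%. The 12 peaks came from 4 genes and several of them flank the same start, so they are fewer than 12 independent sites.

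Within introns, 13 of the 23 peaks lay in intron 2 (56.5%, 36.8% to 74.4%), against 19.8% of all intronic peaks, and 7 lay in intron 1, against 35.2%. The 13 were spread over Celf2 with 5, Rbfox2 with 4 and Mbnl1 and Mbnl2 with 2 each. These introns were long: intron 2 took up 26.3% of the intron length of Celf2, 35.5% of that of Mbnl2 and 44.5% of that of Rbfox2. Length did not always go with peaks: introns 1 and 3 of Celf2 took up 24.8% and 28.4% and held 2 peaks each. Intron 2 of Ptbp2 took up 32.2% of its intron length and held no peak. The Mbnl1 transcript by which the annotation numbers introns, 1 of 25, has only 2 introns, and intron 2 makes up 99.9% of their length. Introns 1 and 2 of Rbfox2, 78.4% of its intron length, held all 6 of its intronic peaks. In Mbnl2 the 4 intronic peaks also lay in introns 1 and 2, 67.7% of its intron length. No peak of the set overlapped annotated coding sequence.

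Motifs known from SMC regulatory sequence were looked for within 100 bp of each summit, on both strands, and in paired windows centred 1000 bp to either side that together were as long. The AP-1 site, read as TGACTCA or its reverse complement TGAGTCA, was found in 8 of the 72 peaks (11.1%, 5.74% to 20.4%) and in 2 flanks (2.78%). The interval of the flanks, 0.765% to 9.57%, overlaps that of the summits. Summits and flanks come from the same peaks, so overlap of such intervals, here and below, does not test their difference. Over all peaks it was found in 14.3%, and in 3.85% of flanks. The TEAD site, read as AGGAATGC, AGGAATGT, GGGAATGC or GGGAATGT, was found in 2 (2.78%, 0.765% to 9.57%), against 7.45% of all peaks. The CArG box of serum response factor was found in 2 (2.78%), against 1.41% of all peaks. The study names a further short sequence whose notation can be read in more than one way. Read as TTTCAT or TTTCCT, it was found in 35 (48.6%, 37.4% to 59.9%) and in 33 flanks (45.8%), against 43.1% of all peaks and 38.9% of flanks. In this reading the genes differed. Mbnl1 had the short site in 7 of its 27 peaks (25.9%, 13.2% to 44.7%) and in 13 flanks (48.1%). Without Mbnl1 it was found in 28 of 45 peaks (62.2%, 47.6% to 74.9%) and in 20 flanks (44.4%, 30.9% to 58.8%), and these intervals overlap. Of the other genes, Rbfox2 and Qk each had it at 5 summits against 2 flanks. The gap was smaller for Celf2 (8 against 6), Ptbp2 (7 against 6) and Mbnl2 (3 against 2). Rbpms had it in none of its 3 peaks and in 2 flanks. Read as the shorter TTTCT or TTTAT, a choice made after seeing the data, it was found in 57 of the 72 peaks (79.2%, 68.4% to 86.9%) and in 59 flanks (81.9%, 71.5% to 89.1%), against 82.8% of all peaks and 83.8% of flanks. In this reading Mbnl1 had it in 20 of 27 peaks (74.1%) and 23 flanks (85.2%), and the other genes in 37 of 45 peaks (82.2%) and 36 flanks (80.0%), a smaller difference. Which reading the study meant is not known.

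**Figure D5:**
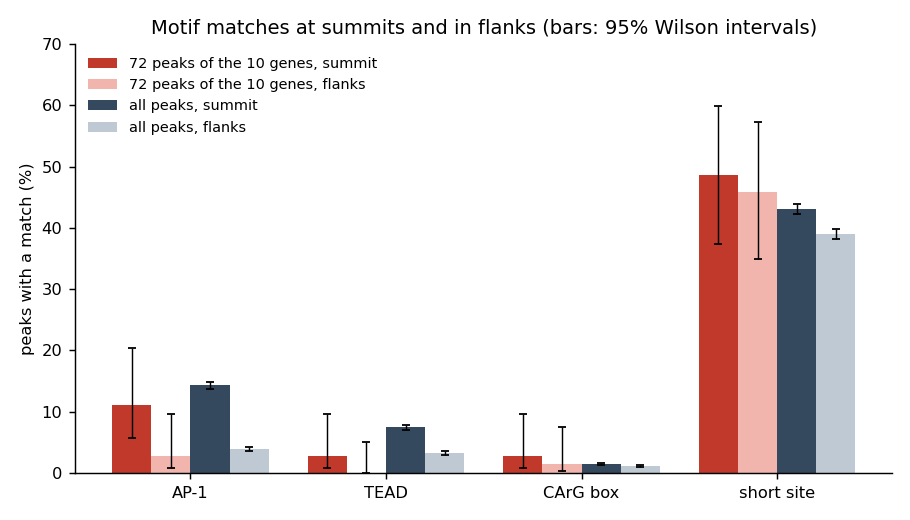
Percentage of peaks with each motif within 100 bp of the summit and of paired flanks with it, for the 72 peaks and for all peaks, with 95% Wilson intervals as error bars. For AP-1 the summit share was above the flank share in both sets (11.1% and 2.78%, 14.3% and 3.85%). For the 72 peaks the intervals overlap, but summits and flanks come from the same peaks, so their difference was not tested. For the short site, read here as TTTCAT or TTTCCT, summit and flank were close over the 72 peaks together.

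The AP-1 matches were in Mbnl1 (3 peaks), Celf2 (3), Rbfox2 (1) and Qk (1). They are printed with 12 bases on either side, on the plus strand with the match in capitals, because AP-1 was the longer motif found most often. None of the 8 was the strongest peak of its gene. The median matched value was 4.36 with AP-1 and 5.41 without, the opposite order from that over all peaks, 5.84 with and 5.42 without, but it rests on 8 peaks.
Mbnl1 at chr3:60346617-60346647: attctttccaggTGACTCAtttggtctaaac
Mbnl1 at chr3:60617849-60617879: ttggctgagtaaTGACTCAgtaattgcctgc
Mbnl1 at chr3:60810633-60810663: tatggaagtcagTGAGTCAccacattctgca
Celf2 at chr2:6594549-6594579: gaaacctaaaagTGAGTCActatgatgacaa
Celf2 at chr2:7389519-7389549: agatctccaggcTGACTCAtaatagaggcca
Celf2 at chr2:7647857-7647887: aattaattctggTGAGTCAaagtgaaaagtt
Rbfox2 at chr15:77192678-77192708: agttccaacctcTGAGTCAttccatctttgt
Qk at chr17:10054582-10054612: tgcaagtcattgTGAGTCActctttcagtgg

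In 2 Mbnl1 peaks the match lay almost at the summit, with its centre 1 bp and 11 bp away. Within 100 bp of the summit, the few TEAD and CArG matches lay in the muscleblind genes, 1 of each in Mbnl1 and in Mbnl2. These genes held 27 and 6 of the 72 peaks searched. Within 200 bp the TEAD share was 11.1%, and the genes of those matches were not recorded. All 4 matches within 100 bp are shown in the same way, the TEAD matches first. The CArG match in Mbnl1 lay in the cluster at the internal start sites and that of Mbnl2 in intron 1.
Mbnl1, TEAD, at chr3:60656715-60656746: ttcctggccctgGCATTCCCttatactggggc
Mbnl2, TEAD, at chr14:120280464-120280495: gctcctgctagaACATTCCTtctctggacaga
Mbnl1, CArG, at chr3:60505194-60505227: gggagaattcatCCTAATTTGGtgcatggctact
Mbnl2, CArG, at chr14:120288601-120288634: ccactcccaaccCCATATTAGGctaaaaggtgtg

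Other genes of RNA splicing were mostly shorter. Of 44 further splicing regulators, among them the SR and hnRNP protein genes, 13 had a peak (29.5%), with 24 peaks in all, against 19.9% of protein-coding genes. Their median length was 23.2 kb, against 132.2 kb for the 10 genes. Of the 34 under 50 kb, 9 had a peak, where the share of all such genes was 12.2%, and of the 3 of 50 to 100 kb, 1 did (35.8%). Of the 4 of 100 to 200 kb, 2 did (49.8%), and of the 3 of 200 kb or longer, 1 did (63.6%). Rbfox1, a paralogue of Rbfox2 and the longest gene here at 1526 kb, had 6 peaks and Nova1, a neuronal splicing regulator, had 5, while Tra2b and Matr3 had 2 each. Khdrbs1, which encodes the RNA binding protein Sam68, had the only one of these peaks that passed a global IDR of 0.05, at 0.0145 and a matched value of 14.9. Of 7 genes whose transcripts carry exons spliced in a smooth muscle manner, 4 had a peak: Cald1 with 12, Vcl with 8, Tpm1 with 5 and Ppp1r12a with 2. Actn1, Smtn and Myh11 had none. The median length of these 7 genes was 96.8 kb. All 3 of 100 to 200 kb had a peak, where the share of all such genes was 49.8%, neither of the 2 of 50 to 100 kb did (35.8%), and 1 of the 2 under 50 kb did. The strongest Cald1 peak had a matched value of 24.3 and a global IDR of 0.000417, above every peak of the 10 regulators.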

How the data were processed

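Chromatin of 2 PRDM6 ChIP and 2 Input samples was sequenced. The authors aligned reads to mm10 with BWA, called peaks in each ChIP replicate against its input with MACS2 and matched them by IDR. Versions were not given in the sources used here. The deposited −log10 p-values are those of the peak caller, the deposited −log10 IDR values those of the matching, and the deposited score is a scaled IDR, where 540 stands for 0.05 and 830 for 0.01. Signal and q-value columns held a placeholder and were not used. A column of the annotation headed as a q-value held the −log10 p-values of the second-listed replicate. The list holds no Input values, so no group comparison was possible.

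Peaks were counted by the gene symbol of the annotation. Gene bounds and classes came from the basic set of GENCODE M21, and start sites, exons and introns of the members from its full set. Sequence was GRCm38. The distance to a TSS and the region class were the authors' own. Motif matches were exact, and Poisson heights used a tolerance of 0.0002 in −log10 p, and a height may be 1 fragment lower if the caller adds a pseudocount. The motif search, for AP-1 and TEAD, and the height search were tested on simulated data, and the counting of peaks per gene was not. Python 3.11.15 was used with pysam 0.24.0, matplotlib 3.10.9, SciPy 1.17.1, pandas 2.3.3 and NumPy 2.4.6. The members, the gene lists and the motifs were chosen with earlier results of these data known, and no test was made. Per gene, the text names the peak nearest a TSS, the highest peak and each peak that passed a global IDR of 0.05, and of the other lists the genes with such a peak and the 4 with most peaks. Other peaks were named after their values were seen. Alternatives were other limits on IDR, −log10 p and distance, gene body overlap, other promoter and motif windows, and each replicate alone. Single replicates were taken within the matched list.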

Additional observations from a re-analysis of the deposited data

How the results depend on the processing

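The number of peaks assigned to the 10 genes depended on the limits set. It fell from 72 to 2 under a global IDR limit of 0.05 and to 0 at 0.01, where no share could be computed, and the genes with a peak fell from 7 to 2 and to 0. With a matched −log10 p of at least 5 there were 45 peaks, within 10 kb of the TSS 29, within 100 kb 51, and with an overlap of the gene body by 1 base or by 50% of the peak 40 each. Joining peaks less than 1 kb apart, an alternative chosen after seeing the data, left 62. Within these 72 matched peaks, a −log10 p of at least 5 in a single replicate left 53 to 57 peaks and 7 genes. These counts could only fall from 72, since no peak outside the matched list could enter. With the second-listed replicate alone Ptbp2 fell from 9 to 5 peaks and Rbpms from 3 to 1. Over all 72 peaks the median −log10 p of a single replicate was 5.84 to 6.92, against 5.38 for the matched value. For the 7 genes with a peak, 30 of their counts under these alternatives were within 1.5 times the reported count and 33 were not.

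The AP-1 share of 11.1% was 4.17% within 50 bp, 18.1% within 200 bp and 6.94% to 9.72% at the summits of single replicates. The TEAD share of 2.78% was 11.1% within 200 bp and 5.56% at the summits of either replicate. With promoters of 1 kb from the reference annotation, the promoter share was 8.33% and the intron share 45.8%. Without Mbnl1 the intron share was 46.7%. Among the 2 peaks under the IDR limit of 0.05, the AP-1, TEAD, promoter and intron shares were 0%. The small heights of single peaks limit their precision, and a gene without a peak may be bound below the caller's limit. No paired analysis was possible because the list holds no Input values to pair with those of the ChIP replicates.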
